A study of Mus musculus with 40 samples.

Results

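Sham duodenum was set against sham ileum in RNA sequencing data of the mouse small intestine. Members were the 3 duodenal and the 3 ileal libraries of sham-operated mice given vehicle, taken by their titles from 40 libraries, and the genes with a mean of at least 1 log2 TPM (transcript abundance relative to the library total, on a log scale) over the 22 intestinal libraries, which were 15923 of the 15958 genes in the table. All mice were wild-type C57BL/6 males, 8 weeks old at surgery. In the sham operation the small bowel was cut and rejoined near its distal end without removal of tissue, and in small bowel resection (SBR) 50 to 60% of it was removed according to the sample labels, while the methods give another extent. Vehicle, a suspension without drug, was given daily from 3 weeks after surgery for 7 weeks, so tissue was taken at 10 weeks, and all mice were fed a liquid diet. The ileal piece came from beyond the join. Each sham mouse therefore carried a healed join near the piece of ileum that was sequenced, and the duodenum had none. Region and distance from the join cannot be told apart in sham. In SBR the upper cut lay shortly beyond the duodenum and that end was joined to the distal ileum. The join was thus nearer the duodenum than in sham, and this cannot be told apart from the removal of bowel. The same contrast in 4 duodenal and 4 ileal libraries of SBR mice given vehicle was used as a second, separate set.

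The small intestine changes its work along its length. The duodenum receives acid, bile and pancreatic juice, takes up iron, calcium and folate, and carries Brunner's glands, which make an alkaline mucus. The ileum takes back bile acids and cobalamin and is rich in Paneth cells, which secrete antimicrobial peptides into the crypts. Transcription factors of the Gata, Pdx, Onecut and Hox families are known to mark positions along this axis.

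The authors corrected the values with ComBat in 2 batches, the intestinal libraries in 1 and the liver libraries in the other, so both regions lay within 1 batch, while levels of different genes were not compared. After the correction the liver and intestinal means lay within 1 of each other for 99.8% of the genes that were not at 0 throughout 1 of the 2 tissues, so a value includes an offset of its own gene, can lie below 0, and is read here only against other libraries for the same gene. The table holds no read counts, so sequencing depth and the counting error behind a value are unknown. Median values over the tested genes were 2.63, 3.00 and 3.09 in the duodenal libraries and 3.19, 3.50 and 3.39 in the ileal libraries, so the ileal libraries were higher throughout. The transcripts *Gm23935*, *CT010467.1* and *CT010467.2*, typed as miRNA, rRNA and unprocessed pseudogene in GENCODE M21, differed by 1.62, -0.20 and 1.78 between the regions, and none was called (adjusted p = 0.145, 0.917 and 0.221). Together they made up 52.1, 17.7 and 35.3% of the summed corrected values, taken off the log scale, in duodenal libraries 1, 2 and 3. In ileal libraries 1, 2 and 3 they made up 11.9, 11.4 and 19.8%, so the regions overlapped but duodenal libraries 1 and 3 stood highest. With these 3 left out and the other corrected values rescaled to a common total, an alternative chosen after seeing the data, 1746 genes were called between the regions, 843 higher and 903 lower in the duodenum. Correlations across genes were 0.83 to 0.91 between libraries of 1 region and 0.65 to 0.78 between regions. Differences below are duodenum minus ileum in log2 TPM, with the standard error and the adjusted p of limma (Benjamini-Hochberg over all tested genes), and a gene is called at an adjusted p under 0.05. An exact permutation test of 3 libraries against 3 cannot give a p below 0.1, so it was not used for single genes.

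Of the 15923 genes, 2331 (14.6%) were called, 610 (3.83%) higher in the duodenum and 1721 (10.8%) lower. Counts of called members in the gene lists below are to be read beside these shares. The 3 duodenal values lay all above the ileal ones for 1136 genes (7.13%) and all below for 4902 genes (30.8%), together 37.9%. Differences were large for many genes. At least 3 log2 units separated the regions for 80 called genes higher and 96 lower in the duodenum. The median difference over all genes was -0.52, and after each library was centred on its own median the split of the calls turned, to 1177 higher and 843 lower. Directions are therefore given below also after centring where they depend on it. Without duodenal library 1 the count was 1463 (601 higher and 862 lower), and without ileal library 2 it was 1260 (440 and 820).

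**Figure D1:**
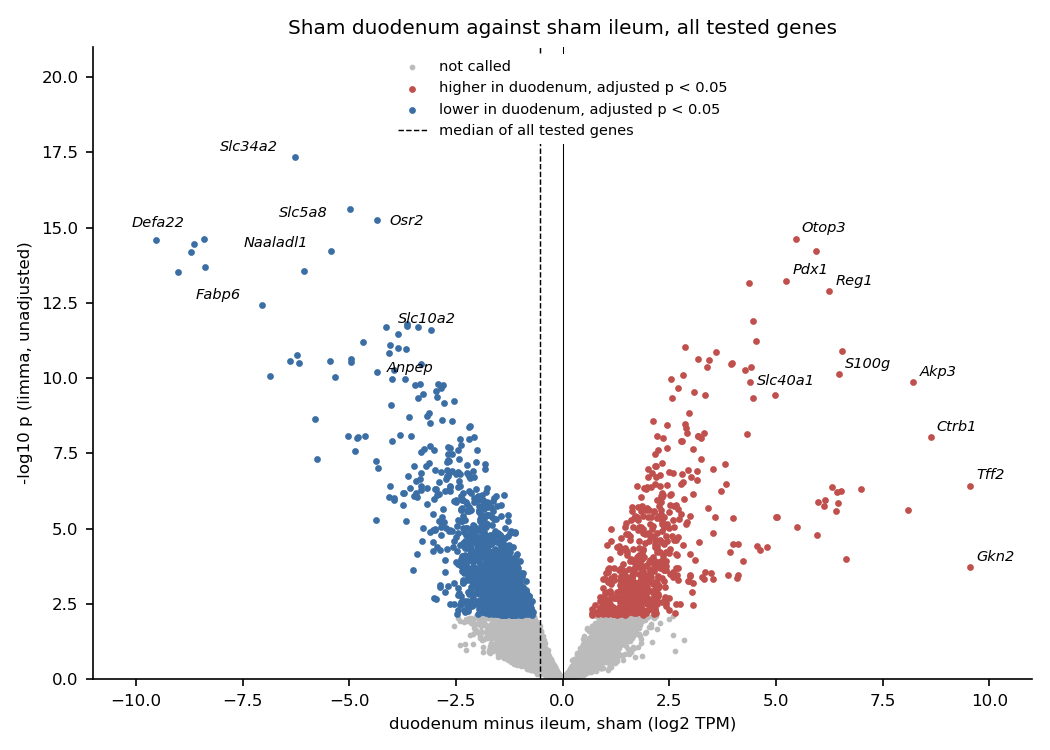
Each point is 1 tested gene, with the difference between sham duodenum and sham ileum (log2 TPM) on the horizontal axis and -log10 of limma's unadjusted p on the vertical axis. Red points are called higher and blue points lower in the duodenum, grey points are not called, and the dashed line marks the median difference of -0.52, left of 0.

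*Slc34a2*, the intestinal sodium-phosphate cotransporter (chr5:53038081-53071664, with all gene positions on GRCm38), read -0.49, -0.65 and -0.60 in the duodenum and 5.52, 5.63 and 5.92 in the ileum. All 3 duodenal values lay below the ileal ones, and the difference was -6.27 ± 0.23 (adjusted p = 7.45e-14), the smallest of all genes tested. *Slc5a8*, a sodium-coupled carrier of short monocarboxylates, was also lower in the duodenum, with a difference of -4.98 ± 0.22 (adjusted p = 1.93e-12). In the other direction *Otop3*, a proton channel (chr11:115334731-115346927), read 4.48, 4.60 and 4.59 in the duodenum and -0.87, -0.87 and -0.96 in the ileum. All 3 ileal values lay below the duodenal ones, and the difference was 5.46 ± 0.27 (adjusted p = 6.84e-12). *Papss2*, which makes the sulfate donor, was higher by 4.46 ± 0.30 (adjusted p = 1.13e-09) and the sulfotransferase *Sult6b2* by 6.55 ± 0.50 (adjusted p = 6.34e-09). *Akp3*, the alkaline phosphatase named for the duodenum, read 7.02, 7.41 and 7.23 in the duodenum and -0.91, -1.00 and -1.07 in the ileum, with a difference of 8.21 ± 0.71 (adjusted p = 3.76e-08). The related *Alpi* was higher by 2.19 ± 0.28 (adjusted p = 9.4e-06). For these 7 genes no duodenal value overlapped an ileal one. Because these are bulk samples, more cells of a type and more RNA per cell cannot be told apart here or below.

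All 16 tested markers of the pancreatic acinar cell, which makes digestive enzymes, were called higher, with a median difference of 6.14. *Ctrb1* (chymotrypsinogen) read 9.04, 7.78 and 5.28 in the duodenum and -1.34, -1.34 and -1.09 in the ileum, and the difference was 8.62 ± 0.95 (adjusted p = 1.42e-06). Duodenal library 1 was the highest and library 3 the lowest, while the ileal values all lay below 0. The mean over the 16 markers was 6.94, 5.80 and 3.08 in duodenal libraries 1, 2 and 3 and -0.43, -0.34 and -0.40 in the ileum. *Cpa1* (6.53, adjusted p = 4.28e-05), *Pnlip* (6.43, 4.58e-05), *Cela2a* (6.32, 3.43e-05) and *Prss2* (6.99, 3.73e-05) showed the same order of the duodenal libraries. Without duodenal library 1, 14 of the 16 were called.

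Markers of Brunner's glands and gastric mucus followed another order. Of 8 tested, 7 were called higher and none lower, with a median of 6.30, and their mean was 5.98, 6.51 and 6.90 in the duodenum against 0.30, 0.37 and 0.35 in the ileum. *Tff2*, a trefoil peptide of the gland, read 8.17, 8.49 and 9.30 in the duodenum and -0.86, -0.87 and -0.95 in the ileum (difference 9.55 ± 1.32, adjusted p = 3.16e-05). *Muc6*, the gland mucin, read 6.58, 7.35 and 8.16 in the duodenum and 1.33, 1.49 and 1.37 in the ileum (difference 5.97 ± 1.08, adjusted p = 0.000613). All duodenal values of both lay above the ileal ones. The gastrokine *Gkn2* was at 9.15, 9.87 and 9.64 in the duodenum and listed at 0 in all 3 ileal libraries, so no fold is given. *Gkn3* (8.10, adjusted p = 0.000134), *Gkn1* (6.64, 0.00247) and *Tff1* (4.11, 0.00101) were also higher. Stomach tissue and Brunner's glands share these markers, and the part of each was not tested.

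**Figure D2:**
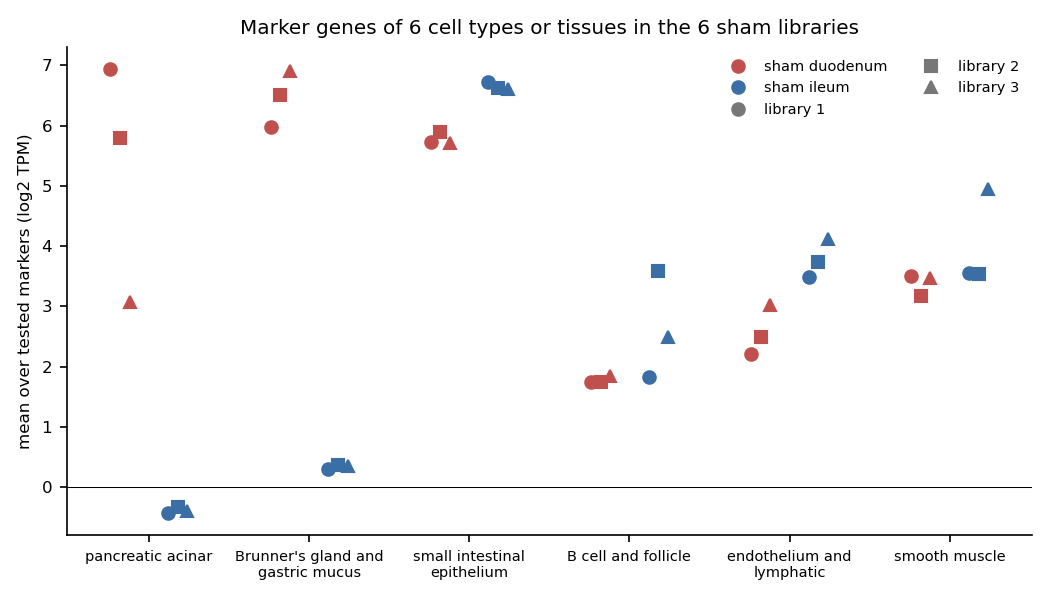
Mean log2 TPM over the tested markers of 6 cell types or tissues in each sham library, duodenum in red and ileum in blue, with the symbol giving the library number. Pancreatic markers spread from 3.08 to 6.94 over the duodenal libraries and lie below 0 in the ileum. The epithelial markers lie between 5.71 and 5.90 in the duodenum and between 6.62 and 6.72 in the ileum.

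Of 34 tested regional transcription factors, 6 were called higher and 7 lower in the duodenum, with a median of -0.40, and after centring 6 were higher and 5 lower. *Pdx1*, a homeobox factor of the duodenum and pancreas (chr5:147269959-147275848), read 4.37, 4.29 and 4.70 in the duodenum and -0.94, -0.70 and -0.75 in the ileum, a difference of 5.25 ± 0.30 (adjusted p = 6.57e-11). Duodenal library 3 was the highest, and the part of pancreatic RNA in the difference was not tested. *Plut*, a long noncoding RNA gene beside *Pdx1*, was higher by 2.88 ± 0.22 (adjusted p = 5.11e-09). *Onecut2*, a cut-homeobox factor of the proximal gut, read 5.60, 5.90 and 5.79 in the duodenum and 1.49, 1.44 and 1.23 in the ileum, a difference of 4.38 ± 0.26 (adjusted p = 7.59e-11). Both groups were tight and did not overlap. *Meis2*, another homeobox factor, was higher by 2.17 ± 0.27 (adjusted p = 9.25e-06). On the ileal side *Osr2*, a zinc-finger factor (chr15:35296098-35303305), read -0.76, -0.76 and -0.74 in the duodenum and 3.39, 3.67 and 3.74 in the ileum, with a difference of -4.36 ± 0.20 (adjusted p = 3.08e-12). *Maf* (-1.96, adjusted p = 0.000783) and *Hnf4a* (-1.90, 0.00941) were lower in the duodenum as well.

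*Gata4*, a factor of proximal identity, did not pass. It read 5.92, 5.76 and 6.21 in the duodenum and 4.68, 5.05 and 4.83 in the ileum, so the 3 duodenal values lay above the ileal ones, but the difference of 1.11 ± 0.67 had an adjusted p of 0.256 in limma. *Gata6* passed at 1.41 ± 0.47 (adjusted p = 0.0461), but it was called in only 1 of the 6 fits that each left out a library. Only 3 Hox genes were in the table, all of the Hoxb cluster. *Hoxb4* differed by -0.23 ± 0.38 (adjusted p = 0.7), and this sign turned after centring, with quantile normalization and with the 3 transcripts named above left out. *Hoxb5* differed by -0.87 ± 0.31 (adjusted p = 0.0642) and *Hoxb6* by -1.53 ± 0.31 (adjusted p = 0.00179), and *Hoxb6* alone was called. It read 0.07, -0.32 and -0.09 in the duodenum and 1.34, 1.26 and 1.67 in the ileum.

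Of 13 tested bile acid genes, 3 were called higher and 4 lower in the duodenum, with a median of -1.20, and the counts were the same after centring. *Slc10a2*, the apical bile acid transporter (chr8:5083219-5105351), read 0.73, 0.74 and 0.55 in the duodenum and 5.18, 4.87 and 4.42 in the ileum, with a difference of -4.14 ± 0.29 (adjusted p = 1.42e-09). *Fabp6*, the cytosolic bile acid-binding protein (chr11:43596049-43601540), read -0.43, -1.69 and -0.69 in the duodenum and 6.35, 5.87 and 6.08 in the ileum, and its difference of -7.04 ± 0.45 (adjusted p = 3.43e-10) was the largest on the ileal side outside the defensins. All 3 duodenal values lay below 0. The basolateral exporter subunits *Slc51a* (-1.67 ± 0.26, adjusted p = 0.000111) and *Slc51b* (-1.94 ± 0.32, 0.000224) were lower by less. *Slc51a* read 2.65, 2.94 and 2.94 in the duodenum and 4.46, 4.51 and 4.58 in the ileum, with no overlap between the regions. *Nr0b2*, the repressor SHP and a target of the bile acid receptor FXR, went the other way, at 5.59, 6.53 and 6.03 in the duodenum and 0.65, 0.83 and 1.77 in the ileum (difference 4.97 ± 0.46, adjusted p = 8.42e-08). The bile acid exporter *Abcc3* was also higher (2.05 ± 0.47, adjusted p = 0.00485). The receptor gene *Nr1h4* itself differed by -1.20 ± 0.51 and was not called (adjusted p = 0.113).

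The promoters of *Fabp6* and *Slc51a* are shown because both genes were among the 4 bile acid genes called lower and both hold a match to CAAAGTC, a short form of the HNF4 site, in the 250 bases before the RefSeq start (GRCm38.p6). *Fabp6* lies at chr11:43601563-43601812 on the minus strand and *Slc51a* at chr16:32487880-32488129 on the minus strand. Capitals mark the matches found by script on either strand. In *Fabp6* these are the reverse complement of TTTATG, a short caudal-type (CDX) word, starting 111 bases before the start and the reverse complement of CAAAGTC 62 bases before it. In *Slc51a* they are the reverse complement of CAAAGTC 77 bases before the start and that of AGGTCA, a nuclear receptor half-site, 58 bases before it.
Fabp6: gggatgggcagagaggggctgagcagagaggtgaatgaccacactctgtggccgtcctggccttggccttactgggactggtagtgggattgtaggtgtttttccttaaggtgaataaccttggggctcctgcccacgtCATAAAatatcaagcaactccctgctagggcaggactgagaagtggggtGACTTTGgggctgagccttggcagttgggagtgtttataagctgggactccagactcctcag
Slc51a: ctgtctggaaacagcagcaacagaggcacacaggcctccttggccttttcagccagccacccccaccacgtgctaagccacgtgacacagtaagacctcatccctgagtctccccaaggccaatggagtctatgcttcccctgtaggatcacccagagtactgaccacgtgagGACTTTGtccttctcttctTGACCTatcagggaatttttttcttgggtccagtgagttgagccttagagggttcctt

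Short words of this kind were counted in the same window of all tested genes that had a RefSeq promoter, 9746 genes or 61.2% of those tested, 462 of them called higher and 1062 called lower. The word AGATAA, known from sites of GATA factors, was present on either strand in 12.6% of the promoters of genes called higher, in 7.35% of those called lower and in 6.51% of all. In the same order, the HNF4-type word was present in 6.93%, 3.67% and 3.81% of promoters, the nuclear receptor half-site in 16.7%, 10.6% and 11.3%, and the caudal-type word in 7.58%, 7.06% and 6.46%. These shares are a description of letters in a window, with no test, and no overlap between the 4 words was counted apart. *Fbp1* (fructose bisphosphatase, chr13:62888283-62888532, minus strand) and *Gip* (an incretin hormone, chr11:96024295-96024544, plus strand) are shown as genes called higher in the duodenum that hold the word AGATAA, in capitals, 116 bases before the start in *Fbp1* and 188 and 69 bases before it in *Gip*.
Fbp1: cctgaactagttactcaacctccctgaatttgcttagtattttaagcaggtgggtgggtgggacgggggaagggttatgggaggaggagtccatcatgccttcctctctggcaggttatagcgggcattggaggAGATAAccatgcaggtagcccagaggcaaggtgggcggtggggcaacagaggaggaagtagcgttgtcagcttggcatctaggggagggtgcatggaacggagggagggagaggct
Gip: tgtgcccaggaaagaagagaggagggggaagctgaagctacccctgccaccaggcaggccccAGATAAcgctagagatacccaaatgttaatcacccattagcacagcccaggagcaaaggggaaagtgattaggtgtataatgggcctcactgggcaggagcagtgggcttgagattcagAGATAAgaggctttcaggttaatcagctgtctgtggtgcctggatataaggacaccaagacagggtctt

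Of 11 tested genes for folate, thiamine, cobalamin and related uptake, 4 were called higher and 5 lower, and these counts held in each of the 6 fits without 1 library and after centring. *Slc46a1*, the proton-coupled folate transporter, read 6.53, 7.17 and 7.29 in the duodenum and 2.88, 2.94 and 3.24 in the ileum (difference 3.98 ± 0.32, adjusted p = 1.22e-08). *Cubn*, the receptor for cobalamin bound to intrinsic factor, read -0.71, -0.56 and -0.43 in the duodenum and 3.04, 3.67 and 3.71 in the ileum (difference -4.04 ± 0.30, adjusted p = 4.81e-09). For both genes the regions did not overlap. *Amn*, the partner of cubilin, was lower by less (-1.76 ± 0.34, adjusted p = 0.00125). The thiamine transporters *Slc19a3* (2.53 ± 0.22, adjusted p = 3.12e-08) and *Slc19a2* (2.39 ± 0.54, 0.00466) and the folate carrier *Slc19a1* (2.36 ± 0.34, 5.14e-05) were higher in the duodenum. *Slc23a1*, the ascorbate transporter, read 1.83, 2.15 and 2.13 in the duodenum and 6.49, 6.31 and 6.45 in the ileum, a difference of -4.38 ± 0.54 (adjusted p = 6.98e-06). The riboflavin transporter *Slc52a3* (-2.18, adjusted p = 1.9e-05) and the biotin transporter *Slc5a6* (-1.79, 0.00173) were lower as well.

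Of 16 tested iron and calcium genes, 8 were called higher and 1 lower, with a median of 1.53, and after centring the counts were 8 and 0. *Cybrd1*, the ferric reductase of the brush border, read 3.95, 4.01 and 3.70 in the duodenum and 0.48, 0.54 and 0.35 in the ileum (difference 3.43 ± 0.27, adjusted p = 1.06e-08). *Slc11a2*, which carries ferrous iron in, read 6.07, 5.76 and 6.86 in the duodenum and 3.48, 3.85 and 3.60 in the ileum (difference 2.59 ± 0.34, adjusted p = 1.39e-05). *Slc40a1*, ferroportin, which carries it out, read 6.23, 6.59 and 6.40 in the duodenum and 1.76, 1.92 and 2.33 in the ileum (difference 4.41 ± 0.36, adjusted p = 1.47e-08). The ferritin heavy chain *Fth1*, which stores iron, was higher by 3.31 ± 0.36 (adjusted p = 1.2e-06). The ferroxidase *Heph* went the other way at -1.03 ± 0.33 (adjusted p = 0.0396) and was called in 1 of the 6 fits without 1 library. *S100g*, the calcium-binding calbindin-D9k, read 6.59, 6.70 and 6.02 in the duodenum and -0.10, -0.33 and 0.30 in the ileum (difference 6.48 ± 0.55, adjusted p = 2.41e-08). The calcium pump *Atp2b1* (2.31 ± 0.37, adjusted p = 0.000173) and the manganese exporter *Slc30a10* (2.92 ± 0.32, 1.2e-06) were also higher in the duodenum, with no overlap between regions.

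Fat absorption genes did not move as a block. Of 30 tested, 5 were called higher and 6 lower, with a median of -0.53 beside -0.52 over all genes, and after centring 7 were higher and 4 lower. The count of higher genes fell to 2 without duodenal library 2 and to 3 without duodenal library 3, ileal library 1 or ileal library 2. The 2 enterocyte fatty acid-binding proteins were opposed. *Fabp1* read 12.14, 13.10 and 12.27 in the duodenum and 10.22, 9.66 and 9.68 in the ileum (difference 2.65 ± 0.54, adjusted p = 0.00181). *Fabp2* read 5.45, 7.17 and 4.84 in the duodenum and 10.08, 9.68 and 9.58 in the ileum (difference -3.96 ± 0.59, adjusted p = 7e-05). Neither gene's groups overlapped. The lipoprotein receptor *Scarb1* was higher by 3.33 ± 0.31 (adjusted p = 8.42e-08). *Apoa4*, an apolipoprotein of chylomicrons, was higher by 2.32 ± 0.68 (adjusted p = 0.0266), with 1 duodenal value below the highest ileal one, and was called in 2 of the 6 fits without 1 library. Lower genes included *Soat2*, which esterifies cholesterol (-3.73 ± 0.57, adjusted p = 0.0001), *Gpat3*, an acyltransferase of glycerolipid synthesis (-3.32 ± 0.39, 3.59e-06), and the fatty acid transporter *Slc27a4* (-2.41 ± 0.46, 0.00105). *Mogat2* differed by -0.12 ± 0.31 (adjusted p = 0.817) and *Apob* by -1.29 ± 0.80 (adjusted p = 0.27), and neither was called.

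Of 28 tested genes of sterol synthesis and of the liver X receptor (LXR), a sterol sensor, 10 were called lower and 1 higher, with a median of -1.02, and after centring 7 and 1. *Abca1*, a cholesterol exporter under LXR, read 2.70, 2.35 and 2.57 in the duodenum and 5.60, 6.22 and 6.21 in the ileum (difference -3.47 ± 0.51, adjusted p = 5.79e-05). *Nr1h3*, the gene of LXR alpha, was lower, at -2.12 ± 0.49 (adjusted p = 0.00585), and *Mylip*, a ubiquitin ligase under LXR, was at -2.46 ± 0.53 (adjusted p = 0.00333). *Stard4* (-2.44 ± 0.43, adjusted p = 0.00052) and *Sqle* of cholesterol synthesis (-2.01 ± 0.38, 0.000954) were lower too. The exception was *Insig1*, a brake on sterol synthesis, at 7.20, 7.68 and 7.24 in the duodenum and 4.12, 4.81 and 4.36 in the ileum (difference 2.94 ± 0.72, adjusted p = 0.00842). *Hmgcs1* was not called (-0.86, adjusted p = 0.256).

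Of 25 tested fatty acid oxidation genes, 10 were called higher and 1 lower, with a median of 1.18, and after centring 15 and 1. *Cyp4a10*, an omega-hydroxylase, read 5.70, 6.96 and 6.33 in the duodenum and 2.51, 2.49 and 2.57 in the ileum, with no overlap. It was higher by 3.80 ± 0.47 (adjusted p = 8.14e-06), the thiolase *Acaa2* by 3.06 ± 0.44 (4.86e-05), and *Ehhadh* of peroxisomal oxidation by 2.10 ± 0.38 (0.000617). *Acadvl*, which starts long-chain oxidation, was higher by 2.21 ± 0.44 (adjusted p = 0.00161). *Cpt1a*, the gate for fatty acids into mitochondria, differed by 1.68 ± 0.66 and was not called (adjusted p = 0.0879). The single lower member was *Vnn1*, a pantetheinase, at 2.68, 3.72 and 2.74 in the duodenum and 6.33, 6.91 and 7.32 in the ileum (difference -3.81 ± 0.41, adjusted p = 1.31e-06).

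Retinoid genes were called in 1 direction. Of 19 tested, 6 were higher and 0 lower in limma with 1 lower at an unadjusted p under 0.05, and after centring 9 and 0. The alcohol dehydrogenase *Adh1* read 9.11, 9.74 and 9.09 in the duodenum and 5.87, 6.23 and 6.13 in the ileum (difference 3.24 ± 0.39, adjusted p = 6.16e-06). *Adh4* (2.57 ± 0.47, adjusted p = 0.000642) and the retinol saturase *Retsat* (2.61 ± 0.45, 0.000365) were higher. The enterocyte carrier *Rbp2* was higher by less than 1 (0.97 ± 0.30, adjusted p = 0.0346), and was called in 1 of the 6 fits without 1 library. *Bco1*, which cleaves beta-carotene, differed by -0.18 ± 0.33 (adjusted p = 0.727) and *Lrat* by 1.31 ± 0.75 (adjusted p = 0.233), and neither was called.

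Among 16 genes of disaccharidases and sugar handling, 6 were called higher and 2 lower, with a median of 0.60, and the count of higher genes was 3 without duodenal library 2, duodenal library 3 or ileal library 2 and 2 without ileal library 1. The disaccharidases *Lct* (-1.25 ± 0.73, adjusted p = 0.241) and *Sis* (-0.54 ± 0.33, 0.262) and the fructose transporter *Slc2a5* (0.88 ± 0.33, 0.078) were not called. *Fbp1*, of gluconeogenesis, read 7.13, 8.35 and 7.79 in the duodenum and 3.85, 4.62 and 4.12 in the ileum (difference 3.56 ± 0.58, adjusted p = 0.000203). It was the member called higher in all 6 fits without 1 library. The glucose-family carriers *Slc5a4a* (-2.67 ± 0.38, adjusted p = 3.98e-05) and *Slc5a4b* (-3.00 ± 0.38, 1.2e-05) were lower in the duodenum.

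Of 14 brush border and related peptidases, 10 were called lower and 1 higher (median -2.76), and of 16 peptide and amino acid transporters, 12 were called lower and 0 higher in limma (median -1.86), with 0 higher also at an unadjusted p under 0.05. After centring these counts were 8 and 1, and 10 and 0. *Anpep*, aminopeptidase N, read 5.19, 6.05 and 6.07 in the duodenum and 9.95, 10.23 and 10.21 in the ileum (difference -4.36 ± 0.36, adjusted p = 2.07e-08). *Naaladl1*, a dipeptidase, read 0.52, 0.94 and 1.11 in the duodenum and 6.08, 6.35 and 6.45 in the ileum (difference -5.43 ± 0.28, adjusted p = 1.03e-11). No values overlapped. *Enpep* (-3.99, adjusted p = 3.12e-08), *Lap3* (-4.01, 1.59e-07), *Dpp4* (-3.55, 1.37e-06), *Xpnpep2* (-3.39, 1.42e-09) and *Mep1a* (-3.17, 3.6e-07) were lower as well, and *Mme* was not called (-0.98, 0.341). The 1 member higher in the duodenum was *Tmprss15*, enteropeptidase, which activates pancreatic trypsinogen. It read 3.48, 4.19 and 3.25 in the duodenum and -0.89, -0.87 and -0.89 in the ileum (difference 4.52 ± 0.33, adjusted p = 3.75e-09). Among carriers, the peptide transporter *Slc15a1* read 2.50, 2.95 and 2.70 in the duodenum and 4.53, 4.54 and 4.51 in the ileum (difference -1.81 ± 0.28, adjusted p = 0.000112). The neutral amino acid transporter *Slc6a19* was lower by less (-1.28 ± 0.27, adjusted p = 0.00248), and *Slc3a1* of cystine and basic amino acid uptake by more (-3.02 ± 0.35, 3.3e-06) than its partner *Slc7a9* (-0.81 ± 0.24, 0.0287), which was called in 2 of the 6 fits without 1 library. The largest differences among carriers were those of *Slc16a10*, which carries aromatic amino acids (-3.66 ± 0.61, adjusted p = 0.00026), and *Slc36a1* (-3.28 ± 0.57, 0.000393).

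**Figure D3:**
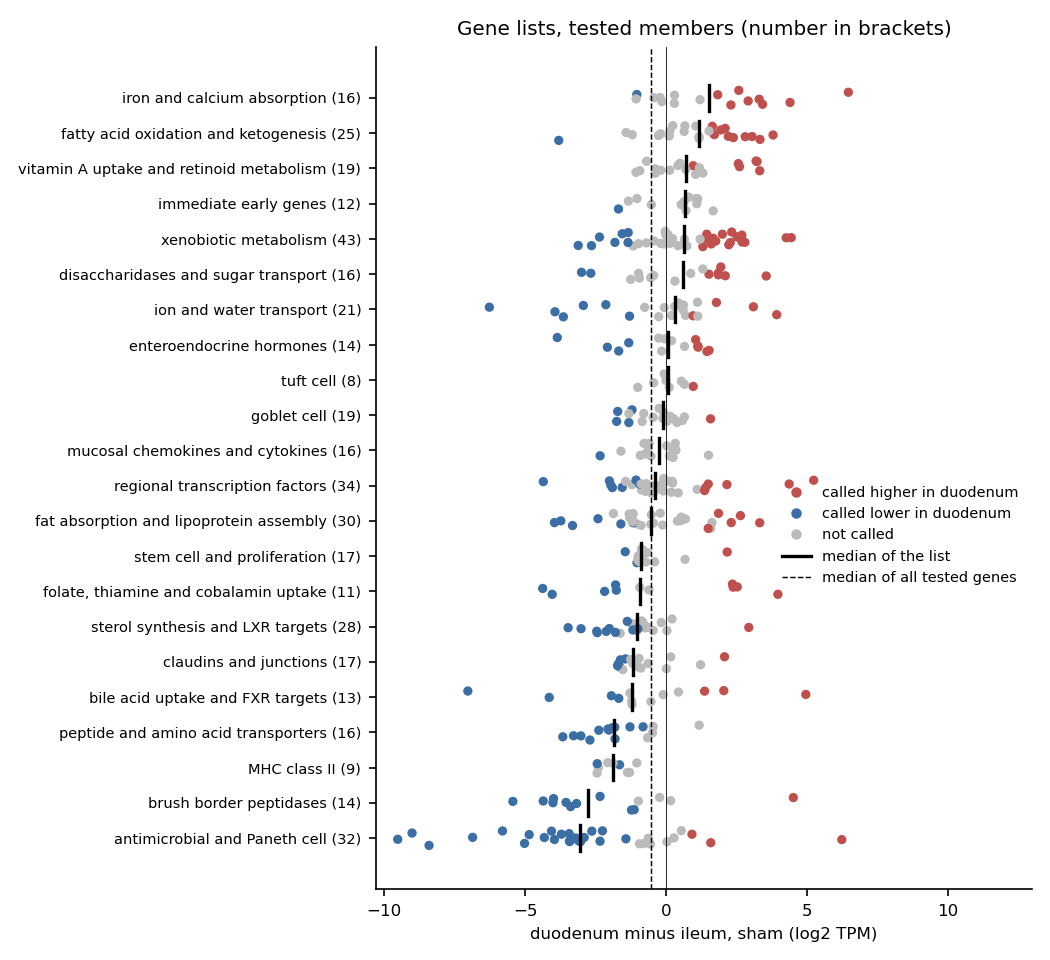
Differences between sham duodenum and sham ileum (log2 TPM) for the tested members of 22 gene lists, sorted by median, with red points called higher, blue points called lower and grey points not called. Antimicrobial and peptidase genes lie furthest to the left (medians -3.07 and -2.76), and iron and calcium genes furthest to the right (1.53).

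Detoxification genes were called in both directions. Of 43 tested genes of xenobiotic metabolism, 18 were called higher and 7 lower, with a median of 0.66, against 14.6% of all genes called in either direction. The glutathione transferase *Gsta1* read 6.65, 6.62 and 5.95 in the duodenum and 2.45, 2.31 and 1.12 in the ileum (difference 4.45 ± 0.41, adjusted p = 9.94e-08). *Gsta4* (4.27 ± 0.35, adjusted p = 1.85e-08) and *Gstm6* (2.80 ± 0.31, 1.82e-06) were higher as well. *Cyp3a11*, a main drug-oxidising enzyme, read 6.40, 8.00 and 7.28 in the duodenum and 4.00, 4.76 and 5.92 in the ileum (difference 2.33 ± 0.56, adjusted p = 0.00744), and lost its call without ileal library 1 (adjusted p = 0.05001). *Cyp2b10* was not called (0.05 ± 0.59, adjusted p = 0.967). *Nr1i3*, the xenobiotic sensor CAR, was higher by 1.37 ± 0.32 (adjusted p = 0.00649). On the ileal side stood *Cyp4f14*, which inactivates leukotrienes (-3.12 ± 0.55, adjusted p = 0.000514), *Cyp2u1* (-2.64 ± 0.38, 4.18e-05) and the aldehyde dehydrogenase *Aldh1b1* (-2.36 ± 0.35, 7.34e-05).

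Of 32 tested antimicrobial and Paneth cell genes, 22 were called lower and 3 higher in the duodenum, with a median of -3.07, and after centring 21 and 3. The count of higher members was 1 to 3 with 1 library left out, and it moved without duodenal library 2, ileal library 2 or ileal library 3. All 25 tested alpha-defensin genes (Defa) were called lower with no overlap between regions, at differences from -9.52 to -2.63 (median -4.97). *Defa22* (chr8:21162277-21163249) read 4.51, 3.52 and 2.47 in the duodenum and 13.22, 13.15 and 12.69 in the ileum (difference -9.52 ± 0.47, adjusted p = 6.84e-12). *Defa20* (chr8:21509258-21510237) read 0.77, 0.88 and 0.59 in the duodenum and 9.88, 9.24 and 8.37 in the ileum (difference -8.41 ± 0.42, adjusted p = 6.84e-12). *Defa24* gave the smallest difference, at 4.74, 4.99 and 4.48 in the duodenum and 7.60, 7.49 and 7.02 in the ileum (difference -2.63 ± 0.37, adjusted p = 3.29e-05). *Defa21* (-9.02), *Defa2* (-8.71), *Defa32* (-8.63), *Defa33* (-8.39) and *Defa5* (-6.86) were the other members with the largest differences, at adjusted p of 3.72e-11, 1.03e-11, 8.07e-12, 2.89e-11 and 2.63e-08.

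Some defensin genes are near copies of each other, and reads with several alignments were not counted, so values of single members are uncertain. Upstream sequence of 2 members is shown for this. Over the 105 pairs of 15 upstream windows, compared base by base without gaps, identity ranged from 19.2% to 100% with a median of 27.6%, so most pairs were not alike in position. Of these 15 Defa genes with a RefSeq promoter, 5 pairs were identical over this window, *Defa21* and *Defa22*, *Defa2* and *Defa20*, *Defa23* and *Defa31*, *Defa36* and *Defa37*, and *Defa42* and *Defa43*. The first 2 pairs differed from each other at 5 of 250 bases (98.0% identity). *Defa22* (chr8:21162027-21162276, plus strand) and *Defa20* (chr8:21509008-21509257, plus strand) are shown, with the 5 differing bases in capitals, as the members of the first 2 pairs with the smallest p. None of the 4 words searched above was found in either window.
Defa22: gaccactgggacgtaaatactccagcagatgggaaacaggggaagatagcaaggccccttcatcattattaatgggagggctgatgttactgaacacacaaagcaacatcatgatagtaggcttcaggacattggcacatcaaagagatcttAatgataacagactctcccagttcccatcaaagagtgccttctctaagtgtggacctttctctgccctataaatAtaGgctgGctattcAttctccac
Defa20: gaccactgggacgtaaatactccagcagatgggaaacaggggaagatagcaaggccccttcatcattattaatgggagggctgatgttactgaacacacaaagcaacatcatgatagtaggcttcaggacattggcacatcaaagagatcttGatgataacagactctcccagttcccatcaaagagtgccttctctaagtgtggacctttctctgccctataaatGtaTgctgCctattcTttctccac

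Other Paneth cell genes were lower as well. *Lyz1*, the Paneth lysozyme, read 5.15, 5.56 and 4.84 in the duodenum and 8.71, 8.56 and 7.90 in the ileum (difference -3.20 ± 0.40, adjusted p = 9.51e-06). *Mptx2*, a pentraxin of Paneth cells, was lower, at -5.80 ± 0.59 (adjusted p = 4.47e-07), *Ang4* at -3.10 ± 0.36 (2.47e-06), *Mmp7*, which processes defensins, at -3.44 ± 0.46 (2.33e-05), and *Pla2g2a* at -3.42 ± 0.50 (6.01e-05). *Pla2g2a* is typed as a polymorphic pseudogene in GENCODE M21, so its RNA need not give a working protein. *Nos2*, inducible nitric oxide synthase, read 0.78, 0.92 and -0.25 in the duodenum and 5.69, 5.42 and 4.92 in the ileum (difference -4.86 ± 0.57, adjusted p = 3.42e-06). *Saa1*, serum amyloid A, read 1.34, 0.87 and 0.94 in the duodenum and 5.07, 5.86 and 7.29 in the ileum (difference -5.02 ± 0.55, adjusted p = 1.37e-06), and *Duox2*, an oxidase of the brush border, was lower, at -2.90 ± 0.42 (adjusted p = 4.92e-05). The lectin *Reg3b* was not called (-0.79 ± 0.38, adjusted p = 0.156). *Reg1*, of the same family, was 1 of the 3 members called higher, at 7.04, 7.43 and 6.84 in the duodenum and 0.55, 0.93 and 1.10 in the ileum (difference 6.25 ± 0.38, adjusted p = 1.32e-10). *Reg1* is also made by the pancreas, and the part of pancreatic RNA in its difference was not tested.

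Hormone genes of enteroendocrine cells were divided between the regions. Of 14 tested, 5 were called higher and 4 lower, with a median of 0.08, and after centring 6 and 3. *Cck*, cholecystokinin, read 2.84, 3.29 and 3.44 in the duodenum and 1.55, 1.94 and 1.72 in the ileum (difference 1.46 ± 0.25, adjusted p = 0.000366). *Gip* read 3.61, 4.06 and 4.07 in the duodenum and 2.65, 2.88 and 3.04 in the ileum (difference 1.05 ± 0.26, adjusted p = 0.00929), and *Ghrl*, ghrelin, was higher by 1.53 ± 0.27 (adjusted p = 0.000549). *Nts*, neurotensin, read -0.54, -0.58 and -0.81 in the duodenum and 2.80, 3.15 and 3.70 in the ileum (difference -3.86 ± 0.28, adjusted p = 2.25e-09). The proglucagon gene *Gcg* (-2.08 ± 0.28, adjusted p = 1.77e-05) and *Pyy*, peptide YY (-1.68 ± 0.31, 0.000887), were lower in the duodenum. The groups of these 6 hormone genes did not overlap. *Tph1*, of serotonin synthesis, was higher by 1.14 ± 0.20 (adjusted p = 0.000422).

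Of 19 goblet cell genes 1 was called higher and 4 lower, 26.3% in either direction against 14.6% of all genes. The counts were 3 and 1 after centring, 0 and 2 without duodenal library 1 or ileal library 2, 1 and 2 without duodenal library 3, and 0 and 3 without ileal library 3. The mucin *Muc2* was lower, at -1.21 ± 0.26 (adjusted p = 0.00354). *Tff3* was lower, at -1.32 ± 0.39 (adjusted p = 0.0278) and called in 2 of the 6 fits without 1 library, and *Clca1* was not called (-0.24 ± 0.27, 0.552). Of 8 tuft cell genes 1 was called (2 after centring), or 12.5%, below the 14.6% of all genes. It was *Avil*, an actin-binding protein (0.97 ± 0.27, adjusted p = 0.0201, called in 3 of the 6 fits without 1 library), while *Trpm5* (0.12, 0.772) and *Sh2d6* (0.66, 0.105) were not called. Of 17 stem cell and proliferation genes 1 was called higher and 2 lower, 17.65% in either direction against 14.6% of all genes. For 12 of the 17 all duodenal values lay below the ileal ones, against 30.8% of all genes. At an unadjusted p under 0.05 in limma 12 were lower and 1 higher. *Rnf43*, which damps Wnt signalling, was higher by 2.17 ± 0.48 (adjusted p = 0.00391). The stem cell gene *Lgr5* was lower, at -1.03 ± 0.29 (adjusted p = 0.0191), but was called in 2 of the 6 fits without 1 library and not after centring, and no lower member of the list was called after centring or without duodenal library 2 or ileal library 2. *Olfm4* (-0.95, adjusted p = 0.0895) and *Mki67* (-0.98, 0.112) were not called. Of 8 general epithelial markers 4 were called lower and 1 higher (3 and 1 after centring), with *Epcam* at -1.90 ± 0.35 (adjusted p = 0.000783), *Vil1* at -1.26 ± 0.30 (0.0062) and *Cdh17* at -0.39 ± 0.25 (0.297), the last not called.

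Of 21 tested genes of ion and water transport, 4 were called higher and 6 lower, with a median of 0.31, and after centring 6 and 5. *Car2*, the cytosolic enzyme, read 5.61, 5.92 and 5.76 in the duodenum and 1.48, 1.79 and 2.22 in the ileum (difference 3.93 ± 0.32, adjusted p = 1.22e-08). *Car4*, the membrane-bound one, read 0.61, 0.91 and 1.05 in the duodenum and 4.45, 4.46 and 4.59 in the ileum (difference -3.64 ± 0.25, adjusted p = 1.34e-09). For both genes the regions did not overlap, in opposite directions. *Guca2a*, guanylin, was lower, at -2.93 ± 0.27 (adjusted p = 9.73e-08), the citrate carrier *Slc13a2* at -3.94 ± 0.33 (1.78e-08), and the sulfate carrier *Slc13a1* was higher by 1.79 ± 0.31 (0.000365). *Slc9a3* (0.61, adjusted p = 0.211), *Cftr* (0.70, 0.218) and *Slc26a3* (0.19, 0.661) were not called. Of 17 claudin and junction genes 1 was called higher and 5 lower, and after centring 2 and 2, with 0 to 1 higher and 2 to 4 lower in the fits without 1 library. Together 35.3% were called, against 14.6% of all genes. The pore-forming *Cldn2* was higher by 2.08 ± 0.66 (adjusted p = 0.0384) but was called in 1 of the 6 fits without 1 library, while *Cldn7* was lower, at -1.69 ± 0.37 (adjusted p = 0.00374) and *Cldn15* (0.02, 0.976) and *Cldn4* (0.17, 0.864) were not called.

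**Figure D4:**
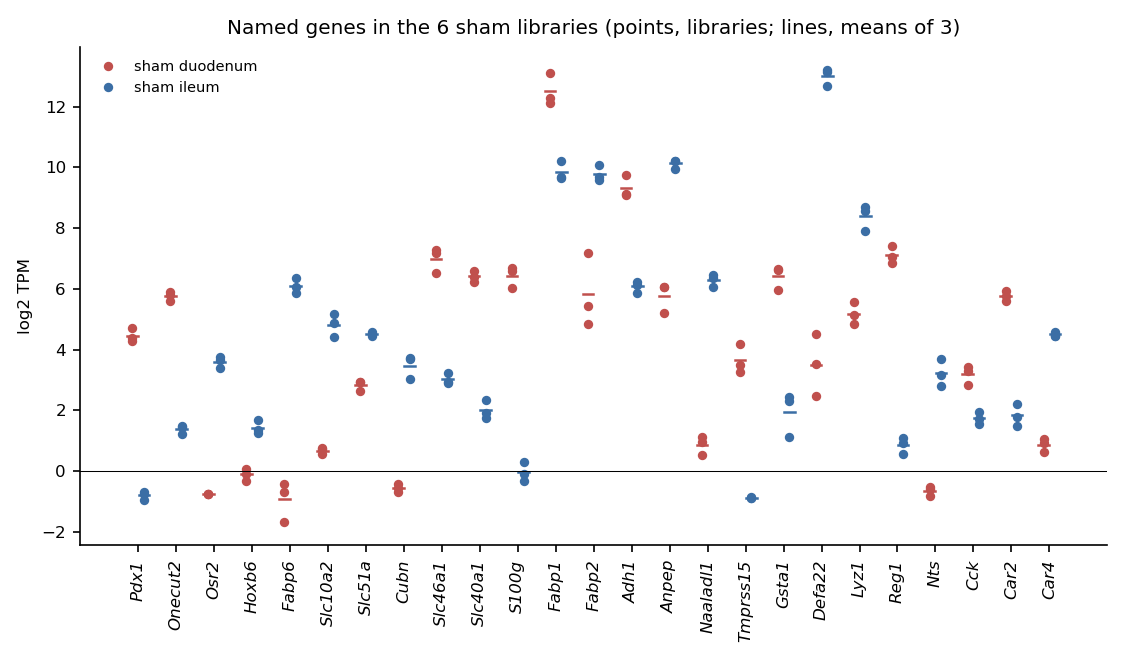
log2 TPM of 25 named genes in the 3 sham duodenal (red) and 3 sham ileal (blue) libraries, each point a library and each short line the mean of 3. *Pdx1*, *S100g* and *Tmprss15* lie near or below 0 in the ileum and *Osr2*, *Fabp6*, *Cubn* and *Nts* below 0 in the duodenum.

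Of 16 chemokine and cytokine genes, 1 was called, or 6.25%, against 14.6% of all genes. It was *Cxcl13*, which draws B cells to follicles, at 0.94, -0.06 and 0.33 in the duodenum and 1.57, 3.95 and 2.70 in the ileum (difference -2.34 ± 0.58, adjusted p = 0.0095). Ileal library 2 was the highest, and without it the call was lost (adjusted p = 0.0809). The same library stood highest for the mean of the B cell and follicle markers, at 3.58 against 1.74 to 2.49 in the other sham libraries, and its part in the result was not tested. *Ccl25* (-0.78, adjusted p = 0.175) and *Ccl20* (0.35, 0.782) were not called. All 9 tested MHC class II genes lay lower in every duodenal library than in every ileal one, against 30.8% of all genes, and 2 were called (0 after centring). *H2-Aa* read 4.84, 4.60 and 4.86 in the duodenum and 7.15, 7.40 and 7.08 in the ileum (difference -2.44 ± 0.78, adjusted p = 0.0401), and it was called in 0 of the 6 fits without 1 library. *Cd74* (-2.45, adjusted p = 0.0583) and *H2-Ab1* (-2.40, 0.0666) were not called.

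No tested marker was called in limma among 5 of B cells, 10 of plasma cells, 9 of T cells, 10 of smooth muscle, 5 of erythrocytes and 3 of enteric neurons and glia. At an unadjusted p under 0.05 the counts were 1, 2, 0, 1, 0 and 1, and after centring 2 plasma cell markers were called higher. *Cd3e* differed by -0.20 ± 0.29 (adjusted p = 0.664), *Jchain* by 0.55 ± 0.47 (0.423) and *Myh11* by -0.71 ± 0.52 (0.353). Of 7 endothelial and lymphatic markers 4 were called lower (4 after centring), with *Prox1*, the lymphatic factor, at -1.92 ± 0.34 (adjusted p = 0.00047) and *Lyve1* at -1.40 ± 0.28 (0.00164). Of 10 macrophage markers 1 was called, *Lyz2*, at -2.36 ± 0.48 (adjusted p = 0.00205), while *Cd68* (-0.82, 0.384), *Csf1r* (0.14, 0.889) and *Itgax* (-0.35, 0.696) were not. Reads of lysozyme can be split between *Lyz1* and its near copy *Lyz2*. Of 9 fibroblast markers 1 was called, complement *C3*, at -2.95 ± 0.57 (adjusted p = 0.0012). Among 7 M cell markers, 2 were called lower and 1 higher. The lower count was 1 after centring and without duodenal library 1 or 3 or ileal library 1 or 2. *Gp2* was higher by 3.05 ± 0.77 (adjusted p = 0.00971), at 4.96, 3.61 and 1.64 in the duodenum and -0.15, 0.86 and 0.37 in the ileum, and the part of pancreatic RNA in it was not tested. Without duodenal library 1 *Gp2* was not called (adjusted p = 0.0776). Among 3 mast cell and granulocyte markers *Kit* was lower (-1.37 ± 0.31, adjusted p = 0.00447) and *Prg2* higher (1.50 ± 0.30, 0.00161). Of 10 hepatocyte markers, which enterocytes share in part, *Ttr* was called higher (3.52 ± 0.85, adjusted p = 0.00755) and 2 were called lower (1 after centring). The lower count fell, to as low as 0, without duodenal library 2 or 3 or any ileal library. Of 12 immediate early genes 1 was called, lower in the duodenum, or 8.33% against 14.6% of all genes. None was called lower after centring or without duodenal library 1 or 3 or ileal library 2 or 3. *Fos* (1.10, adjusted p = 0.179) and *Egr1* (1.68, 0.228) were not called. Of 3 adipocyte markers, *Cidec*, a lipid droplet protein that enterocytes also make, was called higher (2.22 ± 0.56, adjusted p = 0.00973) with overlapping values, and not without ileal library 2 (adjusted p = 0.0912).

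Single markers of these cell types gave the following values. Of the B cell genes, *Cd22* differed by -1.21, *Cd79b* by -0.71 and *Cd79a* by -0.53, at adjusted p of 0.161, 0.403 and 0.531. The plasma cell genes *Igha* (1.29, adjusted p = 0.0823) and *Mzb1* (0.28, 0.639), the T cell genes *Gzma* (0.47, 0.338) and *Cd8a* (-0.22, 0.628) and the granulocyte gene *S100a9* (-0.70, 0.365) were not called. Smooth muscle *Actg2* (-0.93, adjusted p = 0.157) and *Des* (-0.40, 0.702), and the neuronal *Vip* (-1.10, 0.0744), *Ret* (-0.35, 0.312) and *Uchl1* (-0.37, 0.354) were not called. Nor were the fibroblast genes *Dpt* (-0.66, adjusted p = 0.421), *Col1a1* (0.39, 0.805) and *Pdgfra* (-0.08, 0.923) or the erythroid genes *Alas2* (-1.17, 0.203), *Hbb-bs* (0.74, 0.669) and *Hba-a1* (0.07, 0.976). The M cell genes *Spib* (-0.64, adjusted p = 0.395) and *Tnfaip2* (-0.32, 0.724), the adipocyte genes *Cfd* (-0.87, 0.507) and *Lpl* (-0.12, 0.888), the hepatocyte gene *Serpina1a* (-0.77, 0.337), the endothelial *Cdh5* (-0.83, 0.224) and the stress gene *Atf3* (-1.03, 0.339) were not called either. Endothelial *Pecam1* was lower, at -1.28 ± 0.37 (adjusted p = 0.0222) and called in 2 of the 6 fits without 1 library. *Alb*, albumin, was lower, at -2.21 ± 0.70 (adjusted p = 0.0378) and called in 1 of the 6.

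The regional contrast was then read in resected mice. These 8 libraries share no sample with the sham libraries, although both contrasts came from 1 fit with 1 estimate of the spread. In SBR vehicle mice 9068 genes (56.9%) were called, 1078 (6.77%) higher and 7990 (50.2%) lower in the duodenum, with a median difference of -0.98, and after centring 4948, of which 2637 were higher and 2311 lower. Of the 610 genes called higher in sham, 477 (78.2%) were called higher after SBR, where 6.77% of all genes were. Of the 1721 called lower in sham, 1485 (86.3%) were called lower, where 50.2% of all were. There were 7 genes called in opposite directions. *Pdx1* differed by 4.91 after SBR (adjusted p = 9.62e-12), *Slc34a2* by -5.87 (1.49e-14), *Defa22* by -9.36 (3.52e-13) and *Reg1* by 5.61 (3.78e-11). These stood within 1 log2 unit of their sham differences. Of the 16 pancreatic markers 15 were called higher in SBR mice as well, with *Ctrb1* at 6.88 (adjusted p = 2.04e-06).

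The following genes were not called for a difference between surgeries. *Fabp6* read -0.35, -0.57, -1.49 and -0.56 in the duodenum and 8.33, 7.87, 8.37 and 8.03 in the ileum after SBR, a regional difference of -8.89 against -7.04 in sham, and the difference between the 2 was -1.86 (adjusted p = 0.248). *Slc10a2* read 0.80, 0.71, 0.88 and 0.83 in the duodenum and 6.89, 6.74, 6.76 and 6.98 in the ileum, and its difference between surgeries was -1.89 (adjusted p = 0.0664). *Hoxb4*, *Hoxb5* and *Hoxb6* differed by -1.50, -2.30 and -3.05 after SBR (adjusted p = 0.000797, 1.77e-06 and 2.38e-08). *Cldn2* differed by 2.08 in sham and by -2.19 after SBR (adjusted p = 0.00319), with a difference between surgeries of -4.27 (adjusted p = 0.0673).

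Across all genes 12 (0.0754%) were called for a regional difference that differed between surgeries, 7 larger and 5 smaller after SBR in signed value, and 2192 had an unadjusted p under 0.05 in limma. *Gpat3*, lower in sham duodenum as given above, read 4.11, 3.47, 4.78 and 3.77 in the duodenum and 4.49, 4.60, 3.79 and 3.96 in the ileum after SBR, so the regions overlapped, and the change of the difference was 3.14 (adjusted p = 0.019). The glucuronosyltransferase *Ugt2a3* read 5.21, 6.07 and 5.39 in the duodenum and 5.39, 5.48 and 5.09 in the ileum in sham and 5.66, 5.72, 6.63 and 5.42 in the duodenum and 2.33, 1.68, 1.93 and 1.98 in the ileum after SBR, a change of 3.64 (adjusted p = 0.0277). The sham groups overlapped and the SBR groups did not. *Gimd1* changed by 2.84 (adjusted p = 0.0169). In the other direction, the mitochondrial carrier *Slc25a48* differed by -1.44 in sham and -4.71 after SBR (change -3.28, adjusted p = 0.000996). *Suox*, sulfite oxidase, read 4.00, 4.23 and 4.66 in the duodenum and 6.31, 6.27 and 6.21 in the ileum in sham and 4.21, 3.75, 3.10 and 2.71 in the duodenum and 8.40, 8.35, 8.44 and 8.39 in the ileum after SBR (change -2.99, adjusted p = 0.019). *Bco1* changed by -2.46 (adjusted p = 0.0277). The count of 12 moved with single libraries and was 3, 4, 5, 1, 1 and 7 without sham duodenal library 1, 2 or 3 or sham ileal library 1, 2 or 3, 229 without SBR duodenal library 1, and 3 and 1 without SBR ileal library 3 or 4. *Slc25a48* alone was called in all 24 of its alternatives, and *Gpat3*, *Ugt2a3*, *Suox*, *Gimd1* and *Bco1* were called in 17 of 25, 18 of 25, 17 of 25, 19 of 24 and 13 of 24. These alternatives include the one chosen after seeing the data and leave out the other threshold.

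**Figure D5:**
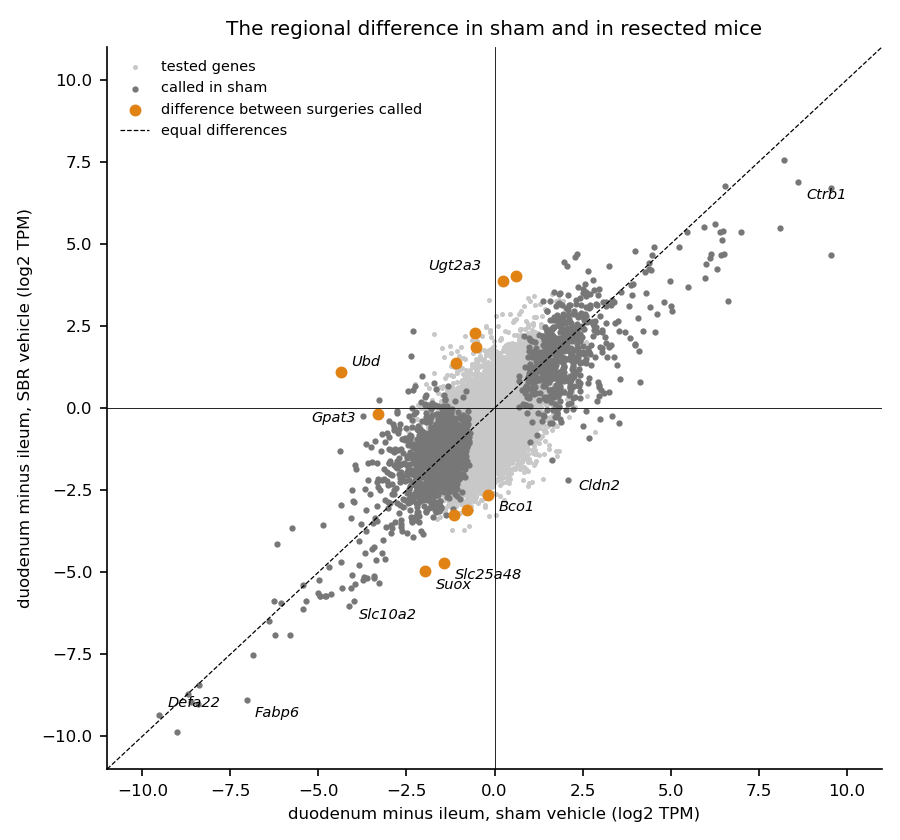
Duodenum minus ileum (log2 TPM) in sham vehicle mice on the horizontal axis and in SBR vehicle mice on the vertical axis, 1 point a tested gene, with the genes called in sham in dark grey and the 12 genes whose difference was called to differ between surgeries in orange. *Defa22* and *Fabp6* lie at the lower left in both, while *Gpat3* and *Ugt2a3* lie above the line of equal differences and *Slc25a48* and *Suox* below it.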

How the data were processed

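RNA was sequenced from duodenum, ileum and liver of mice after sham surgery or SBR. Per the labels and the methods, the authors aligned reads with STAR to GRCm38, counted uniquely aligned, unambiguous reads per gene with featureCounts, scaled the libraries in edgeR, removed duplicate names and genes at 0 throughout, and deposited log2 TPM values corrected with ComBat between 2 batches. The added pseudocount was not given in the sources used here, and values were taken as log2(TPM + 1). Differences of low genes are therefore understated. The names in the header stand 1 field to the left of their values, and columns were matched to samples after that shift. Replicates were compared as separate samples, and since the labels do not say that they came from separate mice, p-values measure the spread between these libraries only.

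Genes with a mean of at least 1 over the 22 intestinal libraries were tested with limma 3.58.1 (R 4.3.3) with a variance trend on 6 groups of tissue, surgery and treatment, without a block, Benjamini-Hochberg adjusted. The code was tested on simulated data. The authors used unpaired 2-sample tests on these values. Members and gene lists were chosen with earlier results of these data known, so list counts are descriptions. Named genes were the first 3 tested genes of each list and marker list, the 8 of each direction with the smallest p and the 8 with the largest difference among called genes without overlap (unnamed transcripts left out), every Hox gene and the 3 of each sign with the smallest p for a difference between surgeries. Other members were given as called members of a list, and some genes under this rule are not reported here. Promoters came from RefSeq (GRCm38.p6) and gene positions from the GENCODE M21 annotation of GRCm38. Alternatives were another filter, pseudocount, centring or quantile scaling, fits of the compared groups alone, without moderation or trend, with library weights or a replicate block, another threshold, and each library left out. Leaving out *Gm23935*, *CT010467.1* and *CT010467.2* was added after seeing the data. The depth of the libraries is unknown, so no counting interval is given.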

Additional observations from a re-analysis of the deposited data

Results flagged for a closer look

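One value stood far from its group among the 30 groups of 4 libraries looked at, where chance alone gives about 1 in 20. It was *Bco1* in SBR duodenal library 3, at 1.05 log2 TPM, with the nearest of the other 3 at 1.73. The regional difference changed with surgery, by limma's test of the difference, for *Gpat3* (3.14), *Gimd1* (2.84), *Ugt2a3* (3.64), *Slc25a48* (-3.28), *Suox* (-2.99) and *Bco1* (-2.46). The change of *Bco1* was called in 13 of its 24 alternatives (the one chosen after seeing the data included), and without SBR duodenal library 3 it was -2.28 and not called (adjusted p = 0.0513 in limma).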

How the results depend on the processing

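The sham count of 2331 genes was 1434 with a filter at a mean of 3, 1419 with the compared groups alone, 1069 without moderation, 5549 with library weights, 3808 at an unadjusted p under 0.05 with a fold change of at least 2, and 1260 to 1844 with 1 library left out. Quantile normalization gave 2338 (1259 higher and 1079 lower) and leaving out *Gm23935*, *CT010467.1* and *CT010467.2* gave 1746 (843 and 903). The SBR count of 9068 was 4826 with the filter at 3, 4948 after centring, 5393 with quantile normalization and 7587 to 9734 with 1 library left out. The count of 12 for a difference between surgeries was 4 with the filter at 3, 22 with a pseudocount of 5, 60 after centring, 78 with quantile normalization, 3 with the compared groups alone, 1989 with library weights, 1986 at the unadjusted threshold, and 1 to 229 with 1 library left out. Causes were not tested. With the replicate number as a block the 3 counts were 2289, 9414 and 1, and deviations of same-numbered sham duodenal and ileal libraries correlated at 0.36, 0.070 and 0.45. The best match bore the same number for every sham ileal library and for sham duodenal libraries 1 and 3. In SBR vehicle mice this held only for ileal library 1 and duodenal libraries 1 and 4. The labels do not say that a number marks 1 mouse, so the numbers were not taken as pairs. With each library centred the sign turned for *CT010467.1* (0.25), *Hoxb4* (0.23), *Mogat2* (0.34), *Bco1* (0.27), *Clca1* (0.21), *Cdh17* (0.067), *Cd3e* (0.26), *Itgax* (0.11), *Cd8a* (0.23), *Des* (0.049), *Ret* (0.11), *Uchl1* (0.084), *Pdgfra* (0.38), *Tnfaip2* (0.13), *Lpl* (0.34). With quantile normalization the sign turned for *Hoxb4* (0.14), *Mogat2* (0.36), *Bco1* (0.20), *Clca1* (0.21), *Cdh17* (0.084), *Cd3e* (0.14), *Itgax* (0.069), *Cd8a* (0.14), *Pdgfra* (0.41), *Tnfaip2* (0.11), *Lpl* (0.24). With those 3 transcripts left out the sign turned for *Hoxb4* (0.010), *Mogat2* (0.20), *Bco1* (0.055), *Clca1* (0.083), *Cd3e* (0.0051), *Pdgfra* (0.23), *Lpl* (0.11). With library weights the sign turned for *Col1a1* (-0.44), *Pdgfra* (0.094), *Cfd* (0.28), *Lpl* (0.12). In the fits that each left out a library the sign turned for *CT010467.1* from -0.70 to 0.052, *Mogat2* from -0.29 to 0.022, *Cyp2b10* from -0.49 to 0.47, *Cldn15* from -0.069 to 0.090, *Cldn4* from -0.55 to 0.74, *Ccl20* from -0.29 to 1.01, *Cd3e* from -0.31 to 0.015, *Csf1r* from -0.43 to 0.80, *Itgax* from -0.78 to 0.23, *Mzb1* from -0.012 to 0.45, *Des* from -0.87 to 0.42, *Col1a1* from -0.80 to 1.00, *Pdgfra* from -0.33 to 0.30, *Hba-a1* from -0.17 to 0.30, *Tnfaip2* from -0.76 to 0.016, *Lpl* from -0.50 to 0.12, *Ugt2a3* from -0.022 to 0.41. None of these was called in the main comparison. Depth is unknown, groups hold 3 libraries, ComBat limits levels to within a gene, and the higher ileal medians and the pancreatic RNA of the duodenal libraries move with region. The joint share of *Gm23935*, *CT010467.1* and *CT010467.2* was highest in sham duodenal libraries 1 and 3 (52.1 and 35.3%).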
